A study of Mus musculus with 6 samples.

Results

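The motile cilia axoneme genes are a set of 40 mouse genes, most of which code for the moving shaft of a cilium. Foxj1, the factor that switches it on, is included. The 40 were chosen by name, as axonemal dyneins, radial spoke and CFAP genes and their regulator, with others such as adenylate kinases and Tmem212. The rule itself uses no measured value, but the set was drawn up with earlier results of these data known. Each of the 40 names matched exactly 1 of the 32285 features in the deposited count table. They were examined in single nuclei of the forebrain of mice aged 16 days, 3 of them WT and 3 Npc1-/- littermates. The Npc1-/- animals carried 2 copies of the Npc1nih allele of the cholesterol transporter NPC1 in all tissues and, like the WT mice, were first-generation hybrids of BALB/cJ and C57BL6/J parents, with no treatment. Each barcode in the joined table carries a suffix from 1 to 6, called a library below, and nothing in the sources used here ties a suffix to a mouse. Therefore WT and Npc1-/- nuclei were not compared, and the 6 libraries were not treated as replicates of a group. No value below comes from a test of genotype.

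A motile cilium is built around the axoneme, a ring of doublet microtubules with a central pair. Dynein arms on the doublets pull on their neighbours, while radial spokes, the central apparatus and the nexin-dynein regulatory complex control when they do so. In the brain such cilia are carried in tufts by ependymal cells, which line the ventricles and move cerebrospinal fluid, whereas astrocytes and neurons carry a single primary cilium without dynein arms. The epithelium of the choroid plexus, which secretes the fluid, also bears several cilia.

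The start regions of some members are shown first, since the members were raised together in the same nuclei and RFX factors are known to act with Foxj1 on ciliary genes. Of the 40 members, 34 matched a RefSeq promoter window on GRCm38.p6, running from 250 bases before to 50 bases after the gene start, and they had 37 such windows. The letters GTTGCC, the core of the site that RFX factors bind, were searched on both strands, and their reverse is GGCAAC. They stood in 13 of the 37 windows (35.1%), against 12.5% of all 32851 promoter windows of that length. For the 46 other motile cilia genes listed for comparison the share was 48.7% of 39 windows, and for 24 intraflagellar transport genes 10 of 20 windows held them. The letters GTAAACA, a forkhead site of the kind that factors such as Foxj1 bind, stood in 2 member windows (5.41%), against 3.65% of all windows. In 10 members the GTTGCC letters ended before the gene start, at a median of 13.5 bases over these 10, and in 7 of them within 100 bases. A match is a description of the letters only. The stretches below lie ahead of the RefSeq start, which can differ from the GENCODE start (the GENCODE spans of Tekt1 and Dnah7b hold the whole stretch), and read 5′ to 3′ on the strand of the gene, with GTTGCC or its reverse in capitals. Cfap46, Drc1, Hydin, Tekt1 and Cfap44 are shown because their motif ends nearest to the start, 3, 5, 7, 9 and 13 bases before it. Spag16, with 97 bases, is shown because it holds the letters on both strands facing each other, as Tekt1 does. Dnah7a and Dnah7b are shown because they are near-identical copies whose RNA differed between epithelia, and their motif ends 194 and 157 bases before the start.
Cfap46 (chr7:139683816-139683844, minus strand): tggtctgggccccgtctctaGGCAACcgc
Drc1 (chr5:30281362-30281392, plus strand): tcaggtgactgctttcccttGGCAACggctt
Hydin (chr8:110266944-110266976, plus strand): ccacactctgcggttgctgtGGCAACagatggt
Tekt1 (chr11:72361883-72361917, minus strand): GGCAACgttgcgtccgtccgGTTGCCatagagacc
Cfap44 (chr16:44394760-44394798, plus strand): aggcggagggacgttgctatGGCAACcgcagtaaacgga
Spag16 (chr1:69826847-69826892, plus strand): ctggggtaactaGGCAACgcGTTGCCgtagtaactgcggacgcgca
Dnah7a (chr1:53706959-53707004, minus strand): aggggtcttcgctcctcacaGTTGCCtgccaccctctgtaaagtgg
Dnah7b (chr1:46066670-46066715, plus strand): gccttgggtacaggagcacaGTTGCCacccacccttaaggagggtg

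The 75878 barcodes were spread over libraries of 8217 to 16118 barcodes, with 51343653 to 107583300 UMIs (molecules counted by their molecular identifier) and 4469 to 5439 UMIs in the median nucleus. After 11 barcodes with a mitochondrial share of 10% or more had been left out, 75867 nuclei were clustered without 172 cilia genes, the members included, which gave 37 clusters. Names came from marker lists with no member and no gene of the cilia lists used here. By these, 28 clusters were named as 14 classes and 9 clusters, with 29.0% of the nuclei, stayed unnamed. Of the barcode sequences, 631 occurred in more than 1 library, and 0 of these were shared among ependymal-like nuclei. Doublets were not removed at first.

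The ependymal-like class was a single cluster of 776 nuclei, 1.02% of all, with 3894 UMIs in the median nucleus. Each of its 10 fixed markers was at least 2.29-fold higher there than in the other nuclei, among them Tm4sf1 (13.8-fold) and Cd24a (9.73-fold). Each was also higher than in astrocyte-like nuclei, but some by less, as S100b (80.1 against 56.4 CPM) and Vim (69.2 against 43.1 CPM). The leading genes of the ependymal-like class were nevertheless ciliary. Dnah12 and Spag17 stood among its top genes by fold although neither had been used to form the cluster. The choroid plexus-like class was a cluster of 384 nuclei with 5034 UMIs in the median nucleus. It held Ttr, the transthyretin gene, at 6010 CPM (UMIs of a gene scaled to 1000000 UMIs of the class), and Slc4a5 at 405-fold the level of the other nuclei. Ependymal-like nuclei also held RNA of other cells: Ttr stood at 661 CPM there, against 432 CPM in astrocyte-like nuclei, and 10 excitatory neuron markers summed to 1071 CPM, against 2287 CPM in excitatory neuron-like nuclei. The part of such RNA in the values below was not tested.

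The 40 members together made up 14653 CPM in ependymal-like nuclei (95% interval 14540 to 14767, counting error only), against 480 CPM in all other nuclei, 417 CPM in astrocyte-like and 462 CPM in neuron-like nuclei. The level in choroid plexus-like nuclei lay between these, at 3944 CPM (3863 to 4026). On the log2 scale the ependymal-like level was higher by 5.14 than in astrocyte-like, by 4.99 than in neuron-like and by 1.89 than in choroid plexus-like nuclei. Per nucleus instead of per UMI the difference from neuron-like nuclei was 4.30, their median nucleus holding 7829 UMIs. A member was counted as higher where the lower bound of the exact 95% interval of the ratio of CPM to all other nuclei was above 8. This was so for 38 of the 40 members, while 2.56% of all 28535 features with a UMI passed the same limit. A feature with few UMIs has a wide interval and can hardly pass, whereas every member had at least 979 UMIs. This share and the shares of all features given below are therefore not matched for count. The median member was 41.1-fold higher and the median feature 1.01-fold. Against astrocyte-like nuclei 38 members passed, with 2.32% of all features, and against neuron-like nuclei 36 passed, with 4.54%. Since a cluster set against the rest of its own nuclei gives no test, these are descriptions. Despite the steep ratios, ependymal-like nuclei held 21.3% of all UMIs of the members (21.2 to 21.5%). Neuron-like nuclei, 29.3% of all nuclei, held 30.9% of them and unnamed clusters 25.4%. Cfap54 alone gave 59382 of the members' 300783 UMIs, and 139 of the 462 CPM in neuron-like nuclei. The share in ependymal-like nuclei was 6.85% for Cfap54 and ran from 4.15% (Dnah14) to 76.1% (Dnah12) over the members.

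**Figure D1:**
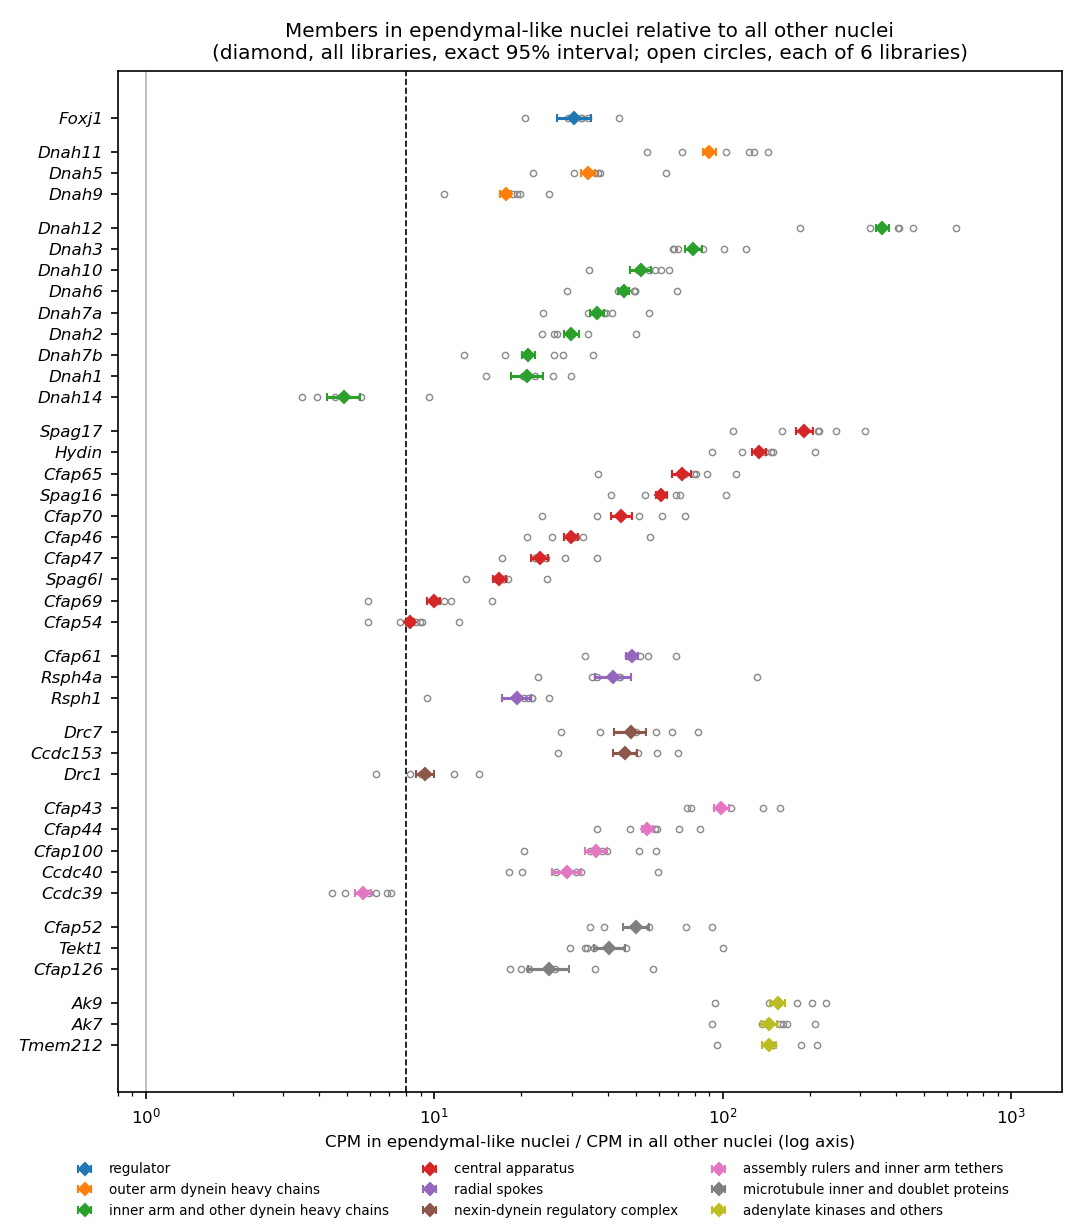
Ratio of the CPM in ependymal-like nuclei to that in all other nuclei (log axis) for each of the 40 members, by role. Diamonds give all libraries with the exact 95% interval, open circles each of the 6 libraries, the dashed line the limit of 8 and the solid line equality. Dnah12 lies farthest to the right at 358-fold, and the intervals of Dnah14 and Ccdc39 lie wholly left of the limit.

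Foxj1, the forkhead factor that drives motile ciliogenesis, stood at 61.9 CPM in ependymal-like nuclei and at 2.03 CPM in all other nuclei, a ratio of 30.5 (26.6 to 34.9). Its level was between 40.8 and 82.5 CPM in the 6 libraries, with a median of 64.5 CPM. Library 4 was the lowest and library 5 the highest, and in every library the level was at least 20.7-fold that of the other nuclei. Of the ependymal-like nuclei 25.8% held a Foxj1 UMI, against 1.28% of astrocyte-like and 1.21% of neuron-like nuclei, whose medians were 3545 and 7829 UMIs.

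The outer arm dynein heavy chains are the motors that set the beat frequency. All 3 passed the limit: Dnah11 at 89.7-fold (85.2 to 94.5), Dnah5 at 34.2-fold and Dnah9 at 17.7-fold. Their levels in ependymal-like nuclei were 592, 366 and 587 CPM. Dnah11 ranged from 435 to 751 CPM in the libraries (median 616) and from 54.5- to 143-fold over the other nuclei. Its lowest ratio was in library 3, where the other nuclei held more of its RNA, as described for neuroblast-like nuclei below. Dnah9 ranged from 413 to 817 CPM (median 609) and from 10.8- to 25.04-fold.

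Of the 9 inner arm and other dynein heavy chains, 8 passed. Dnah12 had the highest ratio of any member, 358-fold (339 to 377), with 1319 CPM in ependymal-like and 3.69 CPM in the other nuclei. In the libraries it ranged from 864 to 2117 CPM (median 1307), and the lowest ratio, in library 4, was still 186-fold. Ependymal-like nuclei thereby held 76.1% of all Dnah12 UMIs, although they were 1.02% of the nuclei. Dnah3 followed at 79.0-fold (324 CPM), Dnah10 at 52.0-fold (187 CPM), Dnah6 at 45.4-fold (706 CPM) and Dnah7a at 36.6-fold (376 CPM). Dnah2 stood at 29.9-fold (339 CPM), Dnah7b at 21.2-fold (381 CPM) and Dnah1 at 21.0-fold (63.9 CPM). Dnah14 did not pass, at 4.87-fold (4.26 to 5.55) and 53.9 CPM. Its level ranged from 39.7 to 108 CPM in the libraries, with a median of 53.7 CPM and ratios of 3.49 to 9.58. Library 5 lay well above the other libraries for this gene, and its main site elsewhere was a group of neurons.

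The central apparatus steers the dynein arms from the middle of the axoneme, and all 10 of its members passed. Spag17 (192-fold, 180 to 205), Hydin (134-fold, 636 CPM), Cfap65 (72.0-fold, 276 CPM) and Spag16 (61.3-fold, 766 CPM) had the steepest ratios. Cfap70 (44.6-fold, 188 CPM), Cfap46 (29.8-fold, 375 CPM), Cfap47 (23.2-fold, 233 CPM) and Spag6l (16.8-fold, 361 CPM) were in the middle. Cfap69 (9.97-fold, 386 CPM) and Cfap54 (8.28-fold, 8.02 to 8.54) were nearest to the limit. Spag17 ranged from 369 to 839 CPM in the libraries (median 575) and from 109- to 312-fold. Cfap54 ranged from 716 to 1303 CPM (median 983) but only from 5.89- to 12.2-fold, since it was at 139 CPM in neuron-like nuclei. It passed with all libraries and fell short when library 1, 2, 5 or 6 was left out, with 7.93-fold as the lowest value. It also fell short at Leiden resolution 2.0, with the cilia genes clustered on, with UMIs per nucleus and with TMM factors (6.802-fold), and with the last Cfap69 did too (8.19-fold). Spag6l has a close paralog, Spag6, so its counts may be split between both.

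The radial spokes carry signals from the centre to the arms. Their 3 members passed: Cfap61 at 48.5-fold (46.2 to 51.0), Rsph4a at 41.8-fold (60.5 CPM) and Rsph1 at 19.3-fold (17.2 to 21.7). Cfap61 stood at 382 to 703 CPM in the libraries, with a median of 548 CPM. Rsph1 stood at 38.6 to 91.6 CPM (median 88.3). Here library 4 was far below the other 5 libraries, the next of which had 81.1 CPM.

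The nexin-dynein regulatory complex links neighbouring doublets. Drc7 (47.9-fold, 42.1 to 54.4) and Ccdc153 (45.8-fold, 134 CPM) had like ratios, and Drc1, at 9.28-fold (8.63 to 9.96), passed narrowly and fell short without library 2 (8.68-fold), with TMM factors (7.62-fold), with UMIs per nucleus and with the cilia genes clustered on. Drc7 ranged from 49.4 to 114 CPM in the libraries (median 84.4) and Drc1 from 129 to 302 CPM (median 195). Drc1 was at 22.9 CPM in neuron-like and 17.2 CPM in astrocyte-like nuclei, whereas Drc7 was at 0.69 and 1.40 CPM there.

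Among the assembly rulers and inner arm tethers, 4 of 5 passed. Cfap43 and Cfap44, which tether an inner arm dynein, stood at 98.8-fold (93.1 to 105) and 54.8-fold, with 469 and 607 CPM. Cfap100, needed for inner arm placement, stood at 36.4-fold (163 CPM) and Ccdc40, which with Ccdc39 forms the ruler of the axonemal repeat, at 28.8-fold (86.1 CPM). Ccdc39 did not pass, at 5.67-fold (5.32 to 6.04). Cfap43 ranged from 344 to 703 CPM in the libraries (median 478). Ccdc39 ranged from 173 to 353 CPM (median 240) and from 4.41- to 7.07-fold. The ruler partners thus differed in the other nuclei, where Ccdc39 was at 41.2 CPM and Ccdc40 at 2.99 CPM. Outside both epithelia Ccdc39 ranged over the named classes from 24.2 CPM in endothelial-like to 49.4 CPM in excitatory neuron-like nuclei. Its gene span overlaps Ttc14 on the opposite strand, which was at 210 CPM in ependymal-like nuclei, and since the sources used here do not say whether the counting used strand, their reads may not be told apart.

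The 3 microtubule inner and doublet proteins passed, with Cfap52 at 50.1-fold (45.1 to 55.7), the tektin Tekt1 at 40.5-fold (80.4 CPM) and Cfap126 at 25.04-fold (21.2 to 29.4). Cfap52 ranged from 81.5 to 159 CPM in the libraries (median 127) and Cfap126 from 31.1 to 74.0 CPM (median 42.4). The last group, the adenylate kinases Ak7 and Ak9, which supply the beat with nucleotide, and the membrane protein Tmem212, was the steepest as a group, with ratios of 145, 155 and 145 and levels of 551, 553 and 640 CPM. Ak9 ranged from 399 to 728 CPM (median 588) and from 93.9- to 229-fold. Tmem212 ranged from 445 to 899 CPM (median 668) and from 95.9- to 213-fold, and in each library both stayed far above the other nuclei.

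**Figure D2:**
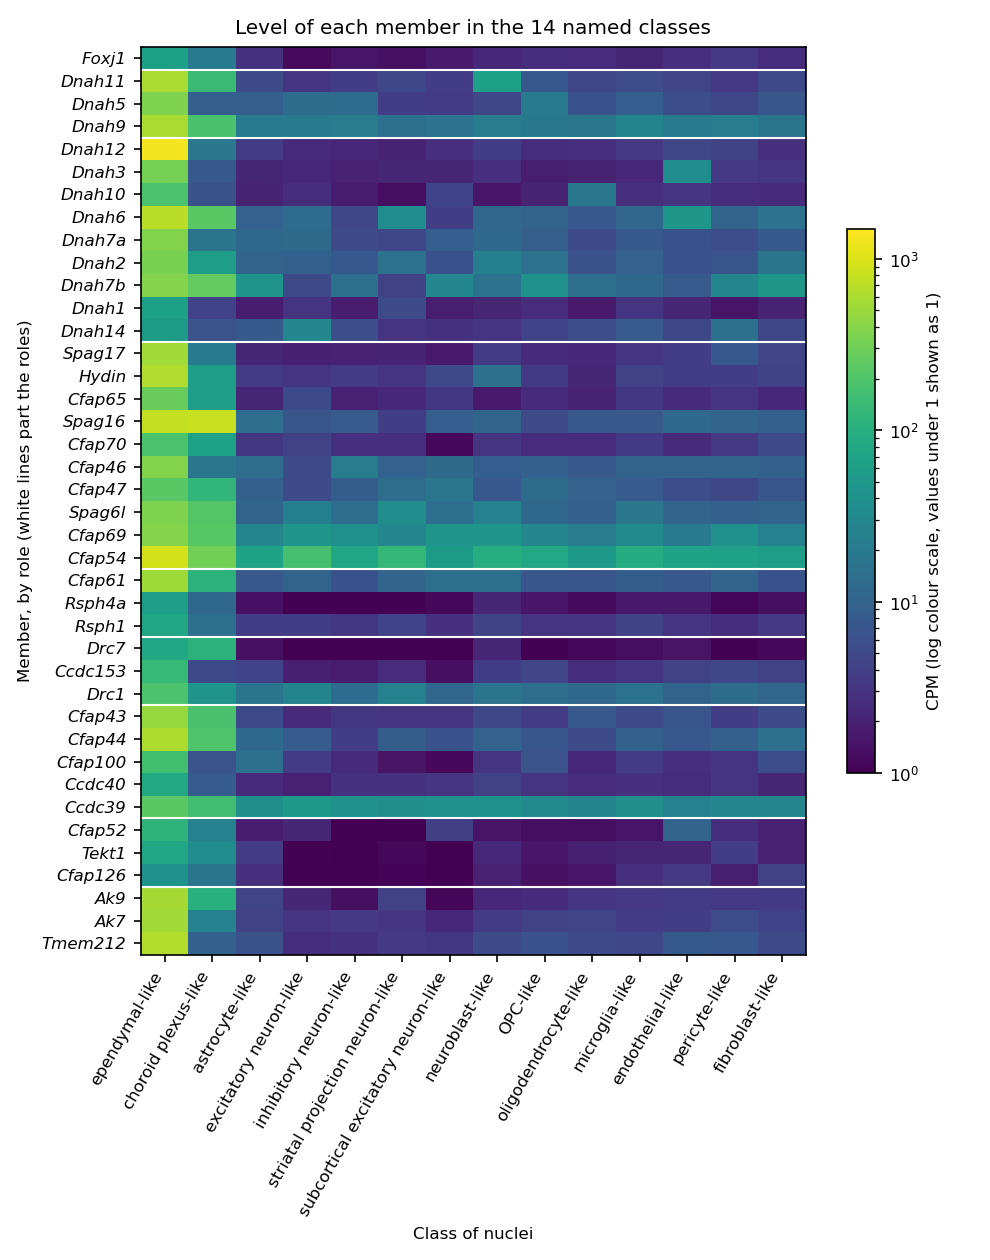
Level of each of the 40 members (rows, by role) in the 14 named classes of nuclei (columns), as CPM on a log colour scale. The ependymal-like column is bright for nearly every member and the choroid plexus-like column for some. Bright cells elsewhere include Dnah11 in neuroblast-like nuclei (62.5 CPM), Dnah3 in endothelial-like nuclei (34.7 CPM) and Cfap54 in excitatory neuron-like nuclei (173 CPM).

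The choroid plexus-like nuclei held part of the set. Compared with astrocyte-like nuclei, 29 of the 40 members had a lower bound above 2-fold there, against 5.88% of all features, and compared with neuron-like nuclei 30 did, against 12.1%. Ependymal-like nuclei held more of 38 members by the interval of the ratio (lower bound above 1), against 15.1% of all features, and 12 members passed the limit of 8-fold over choroid plexus-like nuclei, against 0.482% of all features. The ratio between both epithelia ran from 0.69 to 72.0 with a median of 4.80. Therefore the members did not keep in the choroid plexus-like nuclei the ratio to each other that they had in ependymal-like nuclei.

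Spag16, a central apparatus protein, was at 802 CPM (765 to 839) in choroid plexus-like and 766 CPM in ependymal-like nuclei, a ratio of 0.96 (0.90 to 1.01). In the libraries it ranged from 527 to 979 CPM (median 856) in the former and from 535 to 1101 CPM (median 807) in the latter, so the ranges overlapped. With the cilia genes clustered on, the Spag16 ratio was 0.845, below the interval just given. With TMM factors it was 0.997, and with 1 library left out it ran from 0.916 (without library 5) to 1.01. With the settings used here and all libraries, Drc7 was the 1 member whose interval lay wholly below 1, that is, with more RNA in choroid plexus-like nuclei, at 114 CPM against 79.0 CPM (ratio 0.69, 0.59 to 0.82). It ranged there from 81.4 to 181 CPM, with a median of 125 CPM. Within each of the 6 libraries it was higher in choroid plexus-like nuclei, with ratios of 0.57 to 0.79. Dnah7b (1.46), Ccdc39 (1.47), Spag6l (1.70), Cfap69 (1.74) and Cfap47 (1.89) also had ratios under 2.

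At the other end, Dnah12 was 72.0-fold (53.2 to 100) lower in choroid plexus-like nuclei, at 18.3 CPM. Of its 42 UMIs there, 33 came from libraries 3 and 5, with 35.7 and 47.9 CPM, and the other 4 libraries held 4.43 to 8.57 CPM. Tmem212 was 66.8-fold lower at 9.59 CPM, Dnah3 43.7-fold at 7.41 CPM and Dnah5 39.96-fold at 9.15 CPM. Dnah10 was 30.6-fold lower with all libraries and 47.3-fold without library 3. With doublets removed Dnah5 was 72.5-fold and Cfap100 41.7-fold lower, and Dnah1 (14.7-fold before) passed at 25.5-fold. Spag17 (27.7-fold), Ccdc153 (25.6-fold), Cfap100 (at 6.54 CPM), Dnah7a (22.7-fold), Cfap46 (21.5-fold), Ak7 (21.4-fold) and Hydin (10.7-fold) completed the 12. Hydin fell short with the cilia genes clustered on, at 9.40-fold, and Dnah1 passed with TMM factors and without library 4. By role, the outer arm chain Dnah5 was among these, whereas Dnah9 and Dnah11 were at 185 and 148 CPM in choroid plexus-like nuclei, against 587 and 592 CPM in ependymal-like nuclei.

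**Figure D3:**
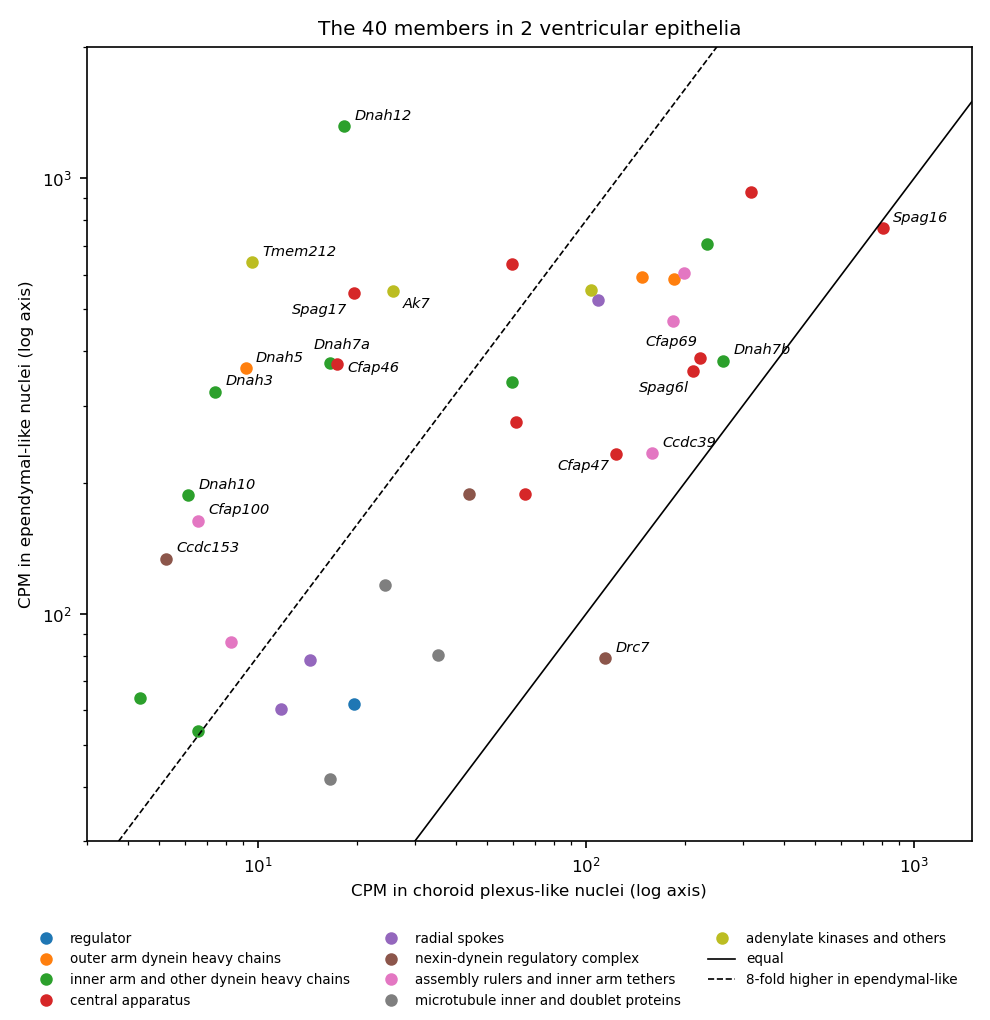
CPM of each member in ependymal-like nuclei (vertical, log axis) against choroid plexus-like nuclei (horizontal, log axis), coloured by role, with lines for equality and for 8-fold. Spag16 lies on the line of equality, Drc7 below it, and a group with Dnah12, Tmem212, Dnah3 and Dnah5 far above the dashed line.

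The near-identical copies Dnah7a and Dnah7b, both on chromosome 1 with spans of 310 and 307 kb, were at like levels in ependymal-like nuclei and at unlike levels in choroid plexus-like nuclei. In ependymal-like nuclei Dnah7a was at 376 CPM (358 to 394) and Dnah7b at 381 CPM (363 to 400). Dnah7a ranged from 256 to 563 CPM in the libraries and Dnah7b from 248 to 626 CPM, so they overlapped fully. In choroid plexus-like nuclei Dnah7a was at 16.6 CPM (11.7 to 22.7) and Dnah7b at 261 CPM (241 to 283). There the library ranges of 8.57 to 24.0 CPM and 209 to 347 CPM did not overlap. Neuron-like nuclei held 9.56 CPM of Dnah7a and 8.24 CPM of Dnah7b. Astrocyte-like nuclei held more of the latter, with 11.4 CPM of Dnah7a and 44.5 CPM of Dnah7b, and Dnah7b reached 80.0 CPM in a single astrocyte-like cluster with Slc6a11 among its top genes. Fibroblast-like nuclei were the highest named class for Dnah7b outside both epithelia, at 47.6 CPM. The third copy, Dnah7c, was not a member and was looked up after these values were seen. It was at 263 CPM in ependymal-like and 42.7 CPM in choroid plexus-like nuclei. Reads of near-identical copies could be split between them by the counting, so single levels are uncertain.

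Levels outside both epithelia were also followed. For each member the highest of the 12 other named classes was compared with the remaining nuclei, again as a description, since the class was picked by its value. The lower bound was above 3-fold for 7 of 40 members, against 19.7% of all 28494 features, so the members' share did not exceed that of features in general. Dnah3 was at 34.7 CPM in endothelial-like nuclei and 3.20 CPM in the remaining nuclei (10.8-fold, with 7.40- to 21.9-fold in the libraries). Cfap52 (10.3 CPM, 5.17-fold) and Dnah6 (47.4 CPM, 3.49-fold) were also highest in endothelial-like nuclei. The span of Dnah3 overlaps Lyrm1 and that of Cfap52 overlaps 9130017K11Rik, both on the opposite strand. Dnah10 was highest in oligodendrocyte-like nuclei at 18.6 CPM (6.90-fold) and Cfap100 in astrocyte-like nuclei at 14.5 CPM (4.14-fold).

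Dnah11 was highest in neuroblast-like nuclei, at 62.5 CPM (12.6-fold with all libraries). This value rested on library 3: without it the ratio was 5.53. Library 3 also held 805 of the 1774 neuroblast-like nuclei, against 162 to 235 in each other library. The libraries ranged from 2.68- to 15.8-fold with a median of 4.66, and libraries 3 and 5 stood apart from the other 4.

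Dnah14 was highest in excitatory neuron-like nuclei, at 29.9 CPM (5.33-fold). Of its 3306 UMIs there, 1916 lay in cluster 8, an excitatory neuron-like cluster of 2450 nuclei whose top genes by fold were Dnah14 itself, Il1rapl2 and Ntng2, and which held 71.1 CPM (67.9 to 74.3) of it. Ependymal-like nuclei held 53.9 CPM (47.2 to 61.2). In the libraries the cluster ranged from 60.4 to 79.1 CPM (median 73.2), within the ependymal-like range of 39.7 to 108 CPM. Within library 5 the cluster was lower than the ependymal-like nuclei (79.1 against 108 CPM), and within each other library it was higher. The cluster was picked after its values were seen. The span of Dnah14 overlaps Lbr on the opposite strand.

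Dnah9 was also seen in clusters without a name, also picked after the values were seen. It was at 198 CPM in cluster 18 and 161 CPM in cluster 32. The former ranged from 185 to 208 CPM in the 6 libraries. The latter was led by Prox1. Gm12296, a noncoding gene that overlaps Dnah9 on the opposite strand, was at 206 and 120 CPM in the same clusters, and at 105 CPM in ependymal-like nuclei beside 587 CPM of Dnah9. Their reads may not be told apart. In all, 19 of the 40 members overlap another gene of the deposited count table by their GENCODE M21 spans, 18 of them on the opposite strand.

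Ependymal-like nuclei held many members at once. The median nucleus had a UMI of 25 of the 40 members (quartiles 21 and 30, highest 40), against 11 in choroid plexus-like, 3 in neuron-like and 1 in astrocyte-like nuclei. At least 10 members were seen in 731 of 776 ependymal-like nuclei (94.2%, 92.3 to 95.7%), in 244 of 384 choroid plexus-like nuclei (63.5%) and in 45 of 9677 astrocyte-like nuclei (0.465%). To set depth equal, each nucleus was thinned to 2000 UMIs, which left out 47 ependymal-like, 6 choroid plexus-like, 1042 astrocyte-like and 207 neuron-like nuclei. The medians were then 19, 6, 1 and 1 members. For a single member, the share of thinned ependymal-like nuclei with a UMI ranged from 8.09% (Cfap126) to 80.2% (Cfap54) with a median of 47.4%, against medians of 8.33% in choroid plexus-like, 1.07% in astrocyte-like and 0.74% in neuron-like nuclei. The part of free RNA in the shares of the last 2 classes was not tested.

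**Figure D4:**
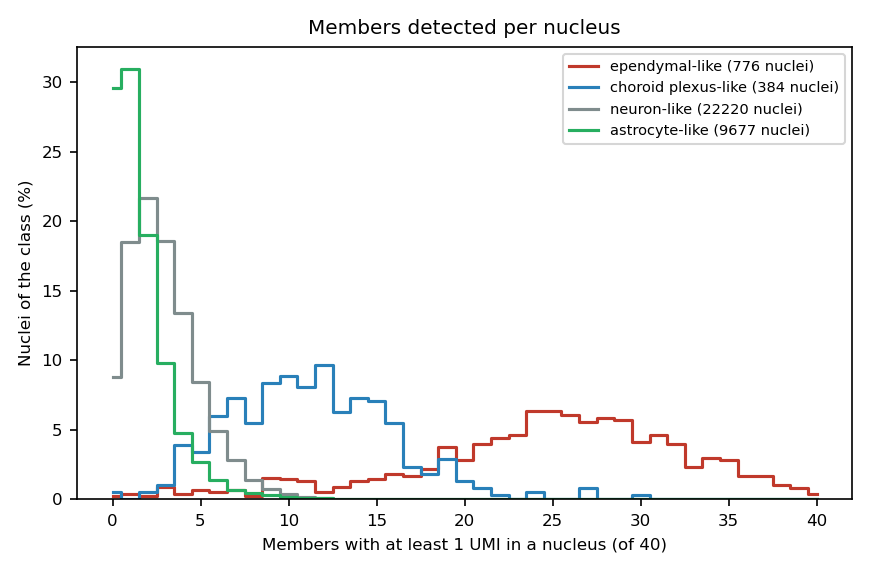
Share of the nuclei of a class (vertical, %) by the number of members with at least 1 UMI (horizontal, of 40), for ependymal-like, choroid plexus-like, neuron-like and astrocyte-like nuclei, without thinning. The ependymal-like curve lies around its median of 25 and the choroid plexus-like curve around 11, while the other classes crowd at 0 to 5 members.

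The libraries differed in the summed level. In ependymal-like nuclei of libraries 1 to 6 it was, in that order, 15320, 15059, 13953, 10352, 21863 and 17261 CPM. Library 5 was 2.11-fold above library 4, and the members moved together. All but Dnah1 and Rsph1 (38 of 40) were highest in library 5, and all but Dnah2 and Tekt1 (38 of 40) were lowest in library 4. The share of all features that were highest and lowest in these libraries was not computed. These counts are therefore not shown to be particular to the members. As a share of the members' sum, the median member differed 1.29-fold between its highest and lowest library, against 2.20-fold for its CPM. The 46 other motile cilia genes moved likewise, from 4422 CPM in library 4 to 9759 CPM in library 5, and the intraflagellar transport genes from 1827 to 2831 CPM in the same libraries. In choroid plexus-like nuclei library 4 was again the lowest, at 2864 CPM, and the other libraries lay between 3948 and 4707 CPM. Astrocyte-like nuclei held 391 to 464 CPM and neuron-like nuclei 439 to 495 CPM.

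The fixed ependymal markers, none of them a member or on the cilia lists, had the same order of libraries as the members. They ran from 523 CPM in library 4 to 919 CPM in library 5. Other quantities differed between libraries without following that order throughout. Libraries 5 and 6 had 75 and 79 ependymal-like nuclei, the others 141 to 167, and the median ependymal-like nucleus had 4556, 3539 and 2696 UMIs in libraries 4, 5 and 6. The excitatory neuron markers summed to 723 CPM in ependymal-like nuclei of library 5, to 1082 CPM in library 4 and to at most 1212 CPM, in library 3. With doublets removed the sums of libraries 4, 5 and 6 were 12463, 24927 and 23811 CPM. Their part in the difference was not tested, and since no suffix could be tied to a mouse, neither was genotype.

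**Figure D5:**
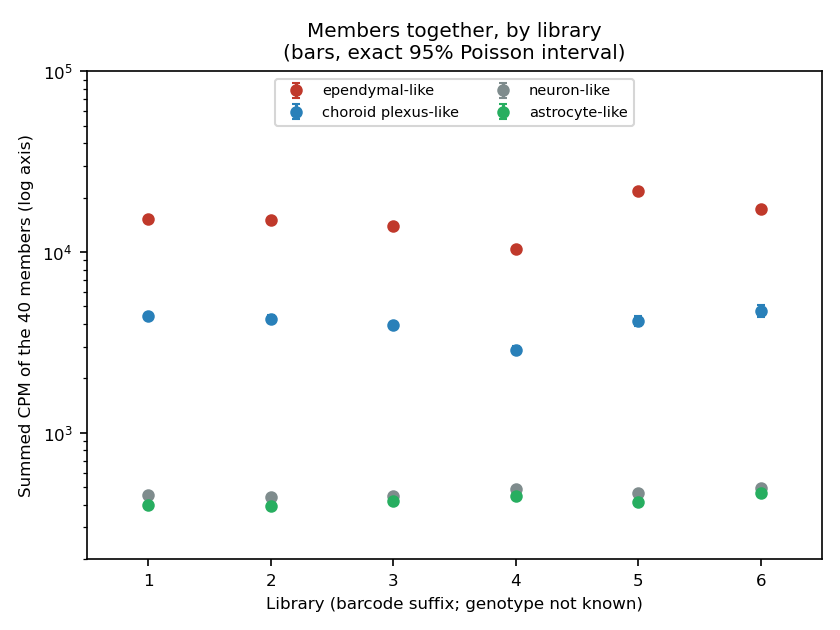
Summed CPM of the 40 members (vertical, log axis) in each of the 6 libraries (horizontal) for 4 classes of nuclei, with exact 95% Poisson intervals, many of them smaller than the points. The ependymal-like points run from 10352 CPM in library 4 to 21863 CPM in library 5 and lie above the choroid plexus-like points in every library.

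Genes around the axoneme were followed through lists. Of these lists, only the 46 other motile cilia genes had been left out of clustering. Of the 46 other motile cilia genes, 34 passed the limit of 8-fold over all other nuclei (2.56% of all features did), with a median of 19.5-fold. The highest were Wdr63 (249-fold), Dnaaf3 (158-fold) and Iqca (153-fold), the lowest Rsph3a (2.24-fold), Spag1 (2.59-fold) and Rsph14 (2.93-fold). Pih1d3 had 0 UMIs in these files and counts as not passed. Of 24 intraflagellar transport genes, which any cilium needs, 0 passed, and 22 had an interval wholly above 1, against 26.7% of all features, with a median of 2.31-fold. Here Ift74 (4.25-fold), Ift81 (3.95-fold) and Ift88 (3.58-fold) were highest, and Ttc21b (0.90), Kif17 (0.95) and Kif3b (1.15) lowest. Of 14 genes of the BBSome and the primary cilium membrane 0 passed, with a median of 1.76-fold. An interval wholly above 1 was seen for 10 of them, against 26.7% of all features, and 1 interval lay wholly below 1. Arl13b (3.18-fold), Ttc8 (2.45-fold) and Bbs9 (2.25-fold) were highest, while Adcy3, the adenylate cyclase of neuronal primary cilia, was lower in ependymal-like nuclei (0.59, 0.48 to 0.71). Sstr3 (0.88) and Bbs4 (1.04) did not differ from 1 by their intervals.

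Of 16 regulators of multiciliation, 5 passed: Myb (34.7-fold), Trp73 (31.8-fold), Rfx2 (28.3-fold), Cdc20b (22.4-fold) and Deup1 (16.1-fold). Foxn4 had the highest ratio, 37.5, but with an interval of 3.71 to 210, and did not pass. E2f4 (1.02), Plk4 (1.08) and Rfx1 (1.23) were the lowest. Gmnc, which starts the multiciliated fate, was at 1149 CPM (1105 to 1193) in choroid plexus-like nuclei and at 15.98 CPM (12.5 to 20.2) in ependymal-like nuclei. It was named after its values were seen. In the 6 libraries it ranged from 838 to 1347 CPM (median 1204) in the former and from 10.7 to 23.3 CPM (median 15.9) in the latter, without overlap. Gmnc was high in the epithelium where the members were at the lower level, and Rfx3, likewise named afterwards, was at 1102 CPM there against 758 CPM. The 16 regulators were not left out of clustering, and Gmnc led the top genes of the choroid plexus-like cluster. Their values therefore come from classes that they could help to form.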

How the data were processed

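Forebrain nuclei of 3 WT and 3 Npc1-/- mice were sequenced with the 10x Genomics single cell 3′ v2 kit. The authors deposited 1 joined matrix of raw UMI counts per gene and barcode. Its header names cellranger 6.0.0, whereas the submitters' processing notes list Cell Ranger 2.1.1 and mm10 and the study's methods describe alignment with STARsolo to GRCm38, EmptyDrops and removal of multiplets with DoubletFinder. Which of these made the matrix, and whether multiplets had been removed from it, was not stated. The use of introns or strand in that counting was not stated in the sources used here. Nuclei under 10% mitochondrial UMIs were normalized to 10000 UMIs, logged and clustered with scanpy 1.11.5 (3000 variable genes, 30 principal components, 20 neighbours, Leiden resolution 1.0), without 172 cilia genes including the members. Clusters were named from marker lists, with limits for naming that were set once the clusters were known. The members and lists were chosen with earlier results of these data known. UMIs were summed per class and given as CPM with exact 95% Poisson intervals, and ratios with exact binomial (Clopper-Pearson) intervals. Both cover counting error only. No test of genotype was run, because no suffix could be tied to a mouse, and none between classes, because these were clusters of the same nuclei, formed from genes other than the members that may vary with them, and the libraries belong to no known group. On simulated UMIs for ependymal-like against all other nuclei, the limit of 8 was passed by 50 of 50 genes raised 16-fold and by 0 of 50 raised 4-fold. This checks the arithmetic under counting error alone, and no fold near the limit was simulated. Gene spans came from GENCODE M21 and promoters from RefSeq, both on GRCm38. Every member is given with its ratio, and library values are given for Foxj1 and for the highest and lowest ratio of each role group. Other clusterings, doublet removal (Scrublet, 0.8% per 1000 nuclei), filters, scalings (with edgeR 4.0.16) and left-out libraries were tried as alternatives.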

Additional observations from a re-analysis of the deposited data

How the results depend on the processing

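The 3 log2 ratios of the members' sum stayed above 0 under each alternative. The summed level and the share have no value of their own per nucleus, nor the share with TMM factors. Clustering on the cilia genes too gave 884 ependymal-like nuclei, a summed level of 12868 CPM, log2 ratios of 5.04 over astrocyte-like, 4.81 over neuron-like and 1.71 over choroid plexus-like nuclei, and a share of 22.3% of the members' UMIs. Removal of doublets left 601 nuclei and gave 18644 CPM, 5.56, 5.34, 1.99 and 21.1% for the same values. Leiden resolution 0.5 gave log2 ratios of 5.20 (astrocyte-like) and 4.92 (neuron-like), and resolution 2.0 gave 4.97 (neuron-like). UMIs per nucleus gave 5.44, 4.30 and 1.81, and TMM factors gave 13580 CPM and 5.01, 4.54 and 1.95. The number of members past 8-fold stayed between 35 and 38. Beside Dnah14 and Ccdc39, Cfap54, Cfap69 and Drc1 fell short with TMM factors, Cfap54 and Drc1 with UMIs per nucleus and with the cilia genes clustered on, and Cfap54 at resolution 2.0. Filters on depth, mitochondrial share and members' counts moved these values by less than their intervals. When each library was left out in turn, the summed level ranged from 14024 to 15816 CPM, the log2 ratios from 5.07 to 5.27, 4.92 to 5.11 and 1.84 to 1.92, the share from 20.4 to 21.9% and the number of members from 36 to 38. Ratios of single members to choroid plexus-like nuclei were recomputed under the same alternatives, a choice made after seeing the data. The 1 turn was in Spag16, whose interval held 1 in the main setting, to 1.01 without library 2. Spag16 also moved the other way, to 0.845 with the cilia genes clustered on and 0.916 without library 5. The cause of these shifts was not tested. No paired analysis was possible because the replicate numbers of the WT and Npc1-/- mice could not be tied to the suffixes. Ratios between classes within a library are given as values without a test. With 776 ependymal-like and 384 choroid plexus-like nuclei, members with few UMIs had wide intervals, and 3 UMIs in choroid plexus-like nuclei equal 1.31 CPM.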

Other observations

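Some nuclei held more or fewer members than most nuclei of their class. Outside both epithelia, 630 nuclei held at least 10 members. The members made up 988 CPM in these 630 nuclei, against 446 CPM in outside nuclei with fewer members and 14653 CPM in ependymal-like nuclei. Their median nucleus had 20259 UMIs, against 4932 UMIs in the 74077 nuclei with fewer members, and 24.9% of them, against 10.2%, were removed where doublets were taken out. Within the ependymal-like class 45 nuclei held under 10 members, with 2619 UMIs in the median nucleus and 31.1% of them removed as doublets. The share removed as doublets was 22.6% in all ependymal-like and 22.4% in choroid plexus-like nuclei, against 10.6% of all nuclei. When the cilia genes were also used for clustering, 775 of the 776 ependymal-like nuclei remained in the class and 109 joined it, 51 of them from fibroblast-like clusters. The joining nuclei held 3471 CPM of the members and 8 members in the median nucleus, and 45.9% of them were removed as doublets.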
